A study of Mus musculus with 7 samples.

Results

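The genes described here are 10 immediate early transcription factor genes of the AP-1, EGR, ATF and IER families, Jun, Junb, Jund, Fos, Fosb, Fosl2, Egr1, Egr2, Atf3 and Ier2, among the 52224 genes of the deposited table. They were chosen by symbol, with earlier results of the same libraries known, so their differences between either drug and the solvent are given as a description, from which nothing is concluded, calls included. RNA was sequenced from bone marrow haematopoietic stem cells of wild-type C57BL/6J mice, sorted as lineage-negative, Sca-1 and c-Kit positive cells with CD150 and without CD48. All cells were cultured for 48 h, with the solvent DMSO (3 libraries), with 0.5 µM gemcitabine (Gem, 2 libraries) or with 100 µM hydroxyurea (HU, 2 libraries). Gemcitabine is a deoxycytidine analogue that stops DNA synthesis once built into DNA, and hydroxyurea blocks ribonucleotide reductase, which supplies deoxynucleotides. The study's title concerns DEK, replication stress and Fanconi anaemia, but no group here carried an altered allele. The labels give no age for the mice and do not state that replicates were independent animals or cultures, so the p-values below reflect library-to-library spread alone, possibly technical.

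Immediate early genes are transcribed within minutes of a stimulus because the factors that act on their promoters are already in the cell and need only phosphorylation, usually by MAP kinases. Jun proteins pair with each other or with Fos proteins through a leucine zipper to form AP-1, and EGR proteins bind GC-rich sites through zinc fingers. In blood-forming cells Egr1 is known to hold stem cells in the niche, Junb to limit myeloid expansion, and Jun and Fos to take part in myeloid differentiation and stress responses. Transcripts of most of these genes are known to be short-lived. Here 48 h was the only time sampled and decay was not measured, so when and how a level arose was not tested.

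Promoter sequence was taken from RefSeq (GRCm38.p6), with windows used for 8 of the 10 genes. No window of Egr1 or Ier2 was searched, so the motif results do not cover them. That RefSeq lacks such windows is not implied. The 5 windows below are shown because their genes differed in pattern as deposited. Jun, Fos and Fosb were higher in every drug library, Junb was lower and Atf3 overlapped DMSO. After the scaling described below, Junb in HU was no longer lower, at 42.0 and 45.2 against 39.8 to 43.4 in DMSO. Each run is the 120 bases before the RefSeq start, 5′ to 3′ on the gene's strand, with every TGACG (the core of the cAMP response element, read on both strands) and every TGACATCA (the AP-1 element of the Jun promoter) in capitals.
Jun: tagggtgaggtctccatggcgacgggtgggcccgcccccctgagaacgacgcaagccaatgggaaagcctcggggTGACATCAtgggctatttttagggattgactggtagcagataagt
Fos: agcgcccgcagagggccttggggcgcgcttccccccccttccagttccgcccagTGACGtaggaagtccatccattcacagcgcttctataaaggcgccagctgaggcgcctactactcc
Fosb: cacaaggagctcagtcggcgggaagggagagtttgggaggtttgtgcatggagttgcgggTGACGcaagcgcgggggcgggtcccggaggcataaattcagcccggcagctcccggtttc
Junb: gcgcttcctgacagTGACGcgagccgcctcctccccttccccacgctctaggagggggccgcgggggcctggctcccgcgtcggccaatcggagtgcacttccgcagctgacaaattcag
Atf3: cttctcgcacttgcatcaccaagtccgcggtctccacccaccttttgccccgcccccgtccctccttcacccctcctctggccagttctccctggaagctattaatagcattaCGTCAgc
They lie at chr4:95052223-95052342 (minus strand), chr12:85473770-85473889 (plus), chr7:19310046-19310165 (minus), chr8:84978749-84978868 (minus) and chr1:191183334-191183453 (minus), the last inside the span that GENCODE gives the gene.

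In the 250 bases before the start, the Jun window held TGACATCA 45 to 38 bases upstream, an element present in 2.93% of all 32851 windows. TGACG, present in 17.8% of windows, stood 129 to 125 and 66 to 62 bases upstream of Fos, 60 to 56 upstream of Fosb, 106 to 102 upstream of Junb and, on the minus strand, 7 to 3 upstream of Atf3, and was also in 3 of the 5 Egr2 windows. As deposited Fos and Fosb were higher with the drugs and Junb and Atf3 were not, and windows of each held this core. Whether the core bears on the levels was not tested. The EGR motif GCGNGGGCG (4.7% of windows) was found 50 to 42 bases upstream of Fosb and 79 to 71 upstream of Fosl2. The AP-1 motif TGANTCA (6.75%) was found in 0 of the 8 genes. TATAAA (12.4%) was found 33 to 28 bases upstream of Fos. The NF-kB motif (7.25%) was found upstream of Fos, Fosb, Fosl2 and 1 of the 5 Egr2 windows, and the CArG box that serum response factor binds (1.47%) in 4 of the 5 Egr2 windows. The Jund window held none of these. All motifs were searched on both strands, no TGACG lies within TGACATCA, and a match is a description of letters and not of a bound site. Sequence more than 250 bases upstream was not searched, so a motif not found here may lie there.

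The libraries differed over the whole table, which bears on every value below. FPKM (fragments counted on a gene, divided by its length and by the mapped fragments of the library) summed to between 818775 and 832979 in DMSO, between 703016 and 729258 in Gem and between 647760 and 651315 in HU. The median log2 fold change of the 13865 genes tested was -0.25 in Gem and -0.30 in HU as deposited, and 0.011 and 0.019 after trimmed-mean scaling, which brings the middle of the genes to 1 level, so member values are given both ways. Olfactory and vomeronasal receptor genes had means from 0.0131 to 0.0203 FPKM in the DMSO libraries, 0.0735 to 0.0839 with Gem and 0.133 to 0.147 with HU. Of 10 stem cell markers, which summed to 142.7 to 153.69 FPKM in DMSO, Kit was at 43.9 ± 4.05 (SD, n = 3), Ly6a, which encodes Sca-1, at 39.2 ± 7.91 and Procr at 14.0 ± 3.54, but Slamf1, which encodes CD150, was at 0.930 ± 0.454, and Fgd5 and Mecom were at 0.0233 ± 0.0252 and 0.323 ± 0.136, so these 3 were under 1 FPKM on average. The myeloid genes Lyz2 and Mpo were at 25887 ± 4563 and 3234 ± 627. DMSO 3 differed from the other controls in genes such as the chemokine gene Cxcl1, at 16.69 FPKM where DMSO 1 and 2 had 0.32 and 0.07. It also differed in sums of cell type markers. Granulocyte markers summed to 11365.7 FPKM in DMSO 3, against 18269.2 and 17180.3 in DMSO 1 and 2. Monocyte and macrophage markers summed to 32771, against 27172.7 and 23597.5. Its stem cell sum of 151.9 lay between theirs. Fewer cells of a type and less RNA per cell cannot be told apart in such bulk libraries.

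In DMSO the 10 genes fell into 3 ranges of FPKM, which divides by transcript length. The order of genes given here is that of the deposited FPKM. Other effects on the value of a gene, such as reads of overlapping genes, were not tested. Ier2 (52.9 ± 6.79), Atf3 (47.6 ± 7.09) and Junb (47.0 ± 1.41; SD, n = 3 for each) were highest and overlapped among the libraries. Fos (27.9 ± 1.72) lay below them and Jun (18.0 ± 3.29) below Fos, with no overlap. Fosl2, Egr1, Egr2, Fosb and Jund lay between 0.45 and 2.54 FPKM in every DMSO library. In Gem and in HU the order had turned over, with Jun first and Fos next in all 4 libraries, Atf3, Ier2 and Junb between 29.17 and 52.1 FPKM and Egr1 between 9.14 and 13.72. In Gem Atf3, Ier2 and Junb followed in that order with no overlap, whereas in HU these 3 overlapped.

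**Figure D1:**
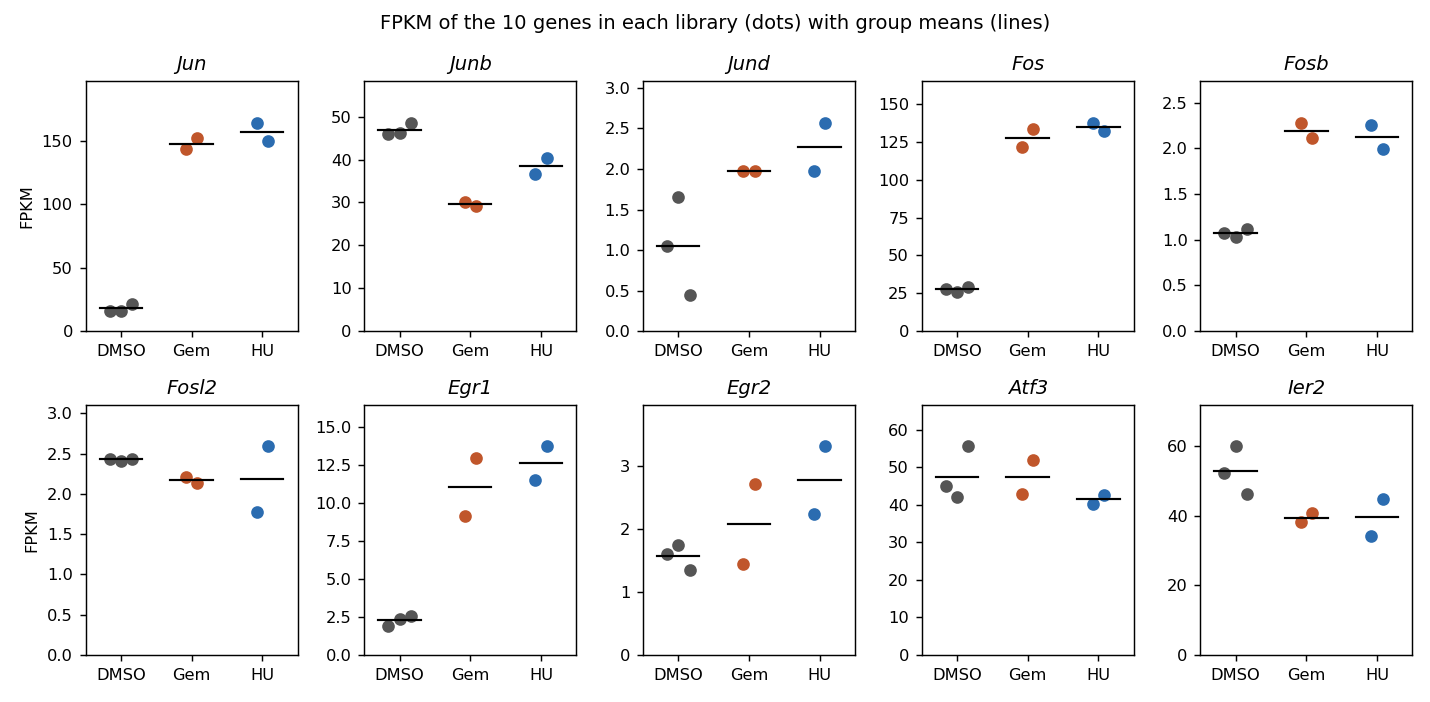
FPKM of each of the 10 genes (vertical axes, each from 0) in the 3 DMSO, 2 Gem and 2 HU libraries (dots), with the group means as lines. Values are as deposited. Jun lies at 15.93 to 21.79 in DMSO and 143.28 to 164.14 in the drug libraries. Junb is lower in the drug libraries, though not in HU after scaling, and Atf3 and Fosl2 overlap.

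Among the Jun family, which supplies the partner common to all AP-1 pairs, Jun itself changed rank most. Jun was at 15.93, 16.25 and 21.79 FPKM in DMSO 1 to 3, 143.28 and 152.28 in Gem and 164.14 and 149.53 in HU. Every drug library lay far above every DMSO library, the ranges of Gem and HU overlapped, and DMSO 3 was the highest of the controls. The mean was 8.21 times that of DMSO in Gem and 8.72 times in HU, or a log2 fold change of 2.98 ± 0.14 and 3.07 ± 0.14 (SE; 3.28 and 3.42 after scaling) on the log2(FPKM + 1) scale. Counted from the most abundant of the 13865 genes tested, Jun stood at places 4331 to 5366 in the DMSO libraries and 442 to 585 in the drug libraries, a position that no rescaling of a library alters. Its fold change was the 11th from the top of all genes tested in Gem and the 26th in HU.

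Junb, which pairs with Fos proteins but activates single AP-1 sites less than Jun does, was at 46.00, 46.31 and 48.59 FPKM in DMSO, 30.11 and 29.17 in Gem and 36.70 and 40.45 in HU. The 3 groups did not overlap as deposited, with DMSO highest and Gem lowest. Its log2 fold change was -0.65 ± 0.077 in Gem and -0.28 ± 0.077 in HU, but -0.35 and 0.082 after scaling, so the direction in HU flipped with the scaling. Among all genes tested Junb stood at places 2264 to 2457 in DMSO, 2834 and 2875 in Gem and 2035 and 2168 in HU, below its DMSO places in Gem and above them in HU. Jund, the member usually made steadily, was at 1.05, 1.65 and 0.45 FPKM in DMSO, 1.98 and 1.97 in Gem and 1.97 and 2.57 in HU. All 4 drug libraries were above the DMSO libraries, whose own spread was wide. The log2 fold change of Jund was 0.58 ± 0.27 in Gem and 0.71 ± 0.27 in HU (0.75 and 0.93 after scaling).

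The makeup of the Jun family therefore differed between the groups. Jun made up 25.3%, 25.3% and 30.8% of the summed FPKM of Jun, Junb and Jund in DMSO 1 to 3, 81.7% and 83.0% in Gem and 80.9% and 77.7% in HU. Junb made up 71.3% ± 2.34 in DMSO (SD, n = 3), 16.5% ± 0.895 in Gem and 19.6% ± 2.06 in HU (n = 2). The ratio of Jun to Junb was 0.382 ± 0.0577 in DMSO, 4.99 ± 0.327 with Gem and 4.08 ± 0.549 with HU. These shares and ratios are taken within a library and are not moved by its scaling. The summed FPKM of the family was 62.98 to 70.83 in DMSO and 175.37 to 202.81 in the drug libraries.

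Fos, the short-lived partner of Jun, was at 28.08, 26.09 and 29.51 FPKM in DMSO, 121.77 and 133.50 in Gem and 137.65 and 132.13 in HU. The drug libraries were all above the DMSO libraries and Gem overlapped HU. The mean was 4.58 times that of DMSO in Gem and 4.84 times in HU, a log2 fold change of 2.15 ± 0.081 and 2.24 ± 0.081 (2.45 and 2.60 after scaling). Fos was the 38th gene from the top in Gem and the 65th in HU. Fosb, a close relative of Fos, was at 1.07, 1.03 and 1.12 FPKM in DMSO, 2.28 and 2.11 in Gem and 2.26 and 1.99 in HU, a small gap at a low level but without overlap. Its log2 fold change was 0.62 ± 0.17 in Gem and 0.59 ± 0.17 in HU (0.80 and 0.81 after scaling). Fosl2, which encodes the Fos relative Fra-2, was at 2.44, 2.41 and 2.44 FPKM in DMSO, 2.21 and 2.13 in Gem and 1.77 and 2.59 in HU. Its HU libraries lay on both sides of DMSO, and its log2 fold change of -0.11 ± 0.17 in Gem and -0.12 ± 0.17 in HU became 0.097 and 0.13 after scaling.

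Fos was the main Fos family transcript in every library, with 88.8% ± 0.446 of the summed FPKM of Fos, Fosb and Fosl2 in DMSO (SD, n = 3), 96.7% ± 0.338 in Gem and 96.9% ± 0.358 in HU (n = 2). The share of Fosl2 was 7.75% ± 0.392 in DMSO, 1.65% ± 0.144 with Gem and 1.57% ± 0.456 with HU. The ratio of Fos to Jun was 1.57 ± 0.206 in DMSO, 0.863 ± 0.0190 with Gem and 0.861 ± 0.0318 with HU. Fos thus exceeded Jun in all 3 DMSO libraries and lay below it in all 4 drug libraries.

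**Figure D2:**
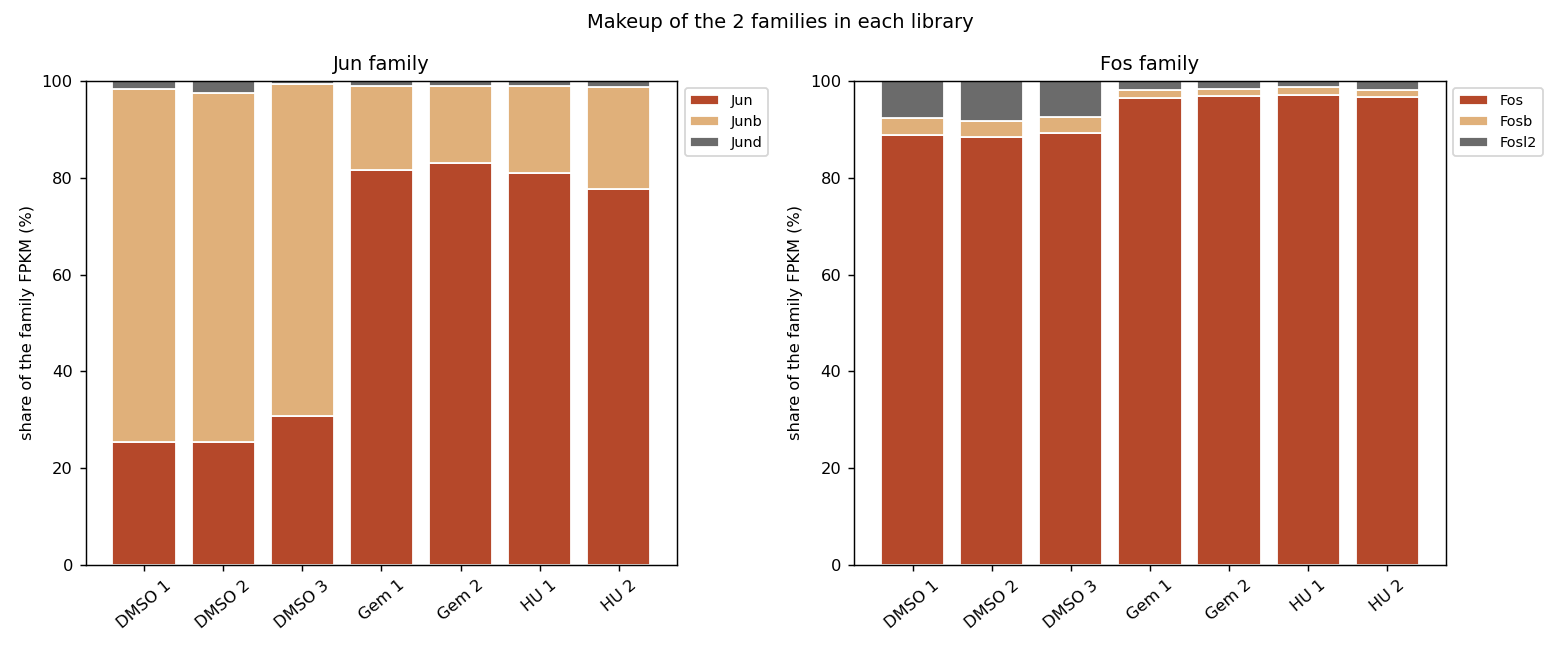
Stacked bars of each member's share (percent, from 0 to 100) of the summed FPKM of its family in each of the 7 libraries. Jun fills 25.3% to 30.8% of the Jun family in DMSO and 77.7% to 83.0% in the drug libraries, while Fos fills most of its family throughout.

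Egr1, the zinc finger factor named for its early response to growth signals, was at 1.93, 2.34 and 2.54 FPKM in DMSO, 9.14 and 12.93 in Gem and 11.50 and 13.72 in HU. The drug libraries were all above the DMSO libraries, and the spread within Gem was the larger of the drug groups. The mean was 4.86 times that of DMSO in Gem and 5.56 times in HU, a log2 fold change of 1.87 ± 0.18 and 2.06 ± 0.18 (2.099 and 2.35 after scaling). Egr1 moved from places 10191 to 10986 among the genes tested in DMSO to places 4997 to 6484 in the drug libraries. Egr2, its relative in myeloid and T cells, was at 1.61, 1.75 and 1.35 FPKM in DMSO, 1.45 and 2.72 in Gem and 2.23 and 3.31 in HU. Gem 1 lay among the DMSO libraries and the other 3 drug libraries above them, and the log2 fold change was 0.24 ± 0.24 in Gem and 0.54 ± 0.24 in HU (0.43 and 0.79 after scaling).

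Atf3, a stress-induced partner of Jun proteins, was at 44.94, 42.19 and 55.61 FPKM in DMSO, 42.85 and 52.10 in Gem and 40.29 and 42.77 in HU. The Gem libraries lay within the DMSO range and the HU libraries reached into its lower end, and the log2 fold change was 0.00014 ± 0.14 in Gem and -0.18 ± 0.14 in HU (0.30 and 0.18 after scaling). Jun stood at 0.377 ± 0.0199 of the level of Atf3 in DMSO, 3.13 ± 0.298 in Gem and 3.79 ± 0.409 in HU. Ier2, an early response gene with a nuclear product, was at 52.25, 59.96 and 46.42 FPKM in DMSO, 38.13 and 40.69 in Gem and 34.16 and 44.88 in HU. All drug libraries were below the DMSO libraries as deposited and overlapped them after scaling. Its log2 fold change was -0.41 ± 0.14 in Gem and -0.42 ± 0.14 in HU, and -0.11 and -0.055 after scaling, where the remaining fall is smaller than its SE.

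Read against all 13865 genes, the counts for the 10 genes were as follows, and all 10 passed the filter on low values. As deposited, 4 of 10 (Jun, Fos, Egr1 and Fosb) had a limma adjusted p below 0.05 as higher and 1 (Junb) as lower in Gem, where 1.5% of genes were called higher and 23.2% lower. The same 4 and the same 1 were called in HU, where 4.46% were called higher and 35.5% lower. After scaling 3 (Jun, Fos and Egr1) were called higher and 0 lower in Gem (0.483% and 0.469% of genes), and 4 (with Fosb) higher and 0 lower in HU (4.75% and 5.27%). By overlap alone, 5 of 10 (Jun, Jund, Fos, Fosb and Egr1) had all 4 drug libraries above all 3 DMSO libraries and 2 (Junb and Ier2) had them below, against 3.76% and 42.6% of genes. After scaling Egr2 joined those above, making 6, and 0 lay below (10.8% and 11.1% of genes). The genes were chosen with these contrasts known and both contrasts share the DMSO libraries, so nothing is read from the counts. Without Gem 2, Jun and Fos were the members still called in Gem. Without DMSO 3, Jun, Fos and Egr1 were called higher in Gem, and the same 3 with Fosb in HU. In that setting Junb and Ier2 were called lower in Gem, and Ier2 in HU.

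**Figure D3:**
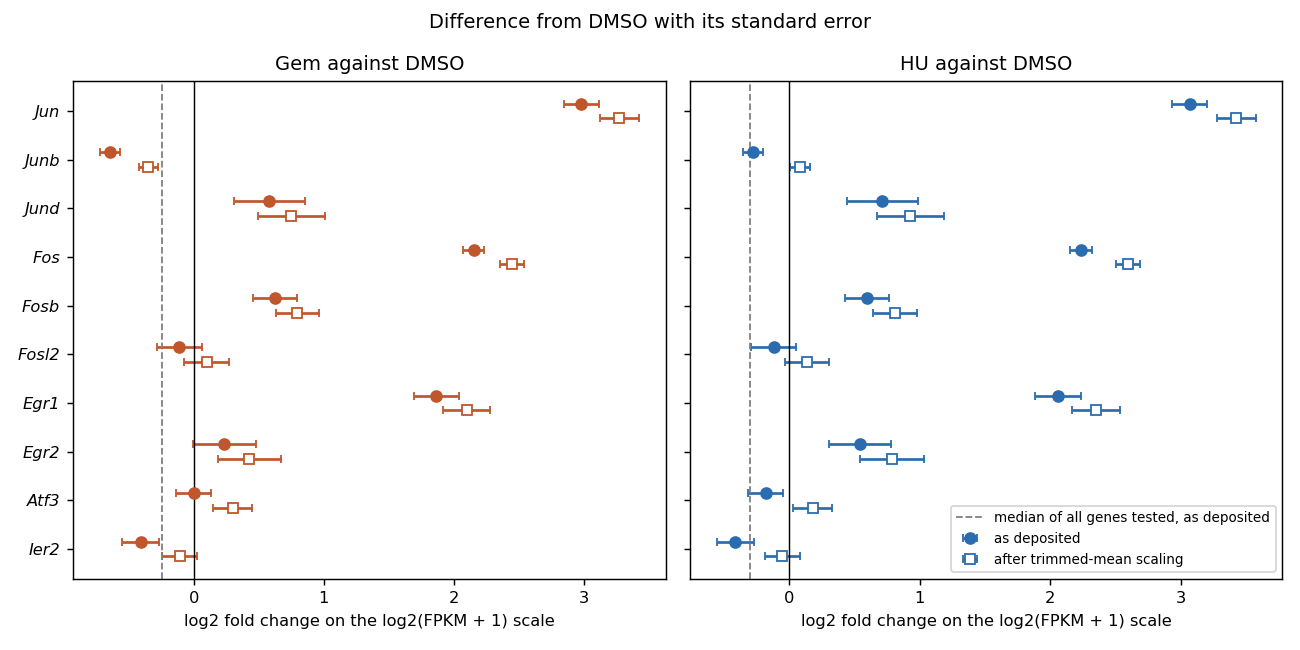
Log2 fold change against DMSO on the log2(FPKM + 1) scale (horizontal axes) for each gene in Gem (left) and HU (right), as deposited (filled circles) and after trimmed-mean scaling (open squares), with the SE as bars and the median of all genes as a dashed line. Jun, Fos and Egr1 stand at 1.87 or above in both drugs, and Junb in HU lies at -0.28 as deposited and 0.082 after scaling.

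Gem and HU were also compared directly, a contrast that uses no DMSO library. The genes were chosen with earlier results of the same libraries known, so this contrast is not free of that choice and is a description too. Of the 10 genes 0 passed in limma as deposited (1, Junb, at an unadjusted p below 0.05), where 0.101% of all genes did, and 0 passed after scaling (0.13% of all genes; again Junb alone at an unadjusted p below 0.05). Junb was lower in Gem than in HU, by -0.37 ± 0.085 on the log2 scale, with a 95% interval from -0.57 to -0.17 and an adjusted p = 0.255 (limma, Benjamini-Hochberg over all genes), and -0.43 with an adjusted p = 0.202 after scaling. Both Gem libraries were below both HU libraries. For Jun the difference of Gem minus HU was -0.084, with an interval from -0.43 to 0.26, and for Fos it was -0.080, from -0.29 to 0.13. Egr1 differed by -0.19, with an interval from -0.64 to 0.26. For the 9 genes other than Junb the limma adjusted p lay between 0.700 (Atf3) and 0.995 (Fosl2), and the widest interval was that of Jund, from -0.83 to 0.57. With 2 libraries a drug these intervals leave room for differences between the drugs, and a p that misses the threshold does not show equal levels.

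The other genes of the pathway were taken from lists of textbook members, written with earlier results known. Of the 127 tested genes in 8 lists, 0 were called higher in Gem (1 at an unadjusted p below 0.05) and 33, or 26.0%, lower, where 1.5% and 23.2% of all genes were called. In HU 0 were called higher (0 at an unadjusted p below 0.05) and 48, or 37.8%, lower, beside 4.46% and 35.5% of all genes. The shares called lower thus lay near those of all genes, and the same 23.2% and 35.5% are the measure for each list below. The median log2 fold change over the lists was -0.26 in Gem and -0.31 in HU, beside -0.25 and -0.30 for all genes tested. After scaling 1 gene was called higher and 0 lower in Gem, and 1 higher and 5 lower in HU, with medians of -0.00041 and -0.0052. The gene called higher after scaling was Irf1, an interferon regulatory factor named here after its values were seen, with 0.53 in Gem and 0.42 in HU (limma adjusted p = 0.0413 and 0.0237). As deposited its values of 41.11 to 44.75 FPKM in DMSO and 41.14 to 52.85 in the drug libraries overlapped. The count of 33 in Gem was 0 without Gem 2, 12 without Gem 1, 16 without DMSO 1 and 19 without DMSO 2, and the count of 48 in HU was 26 without HU 1.

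**Figure D4:**
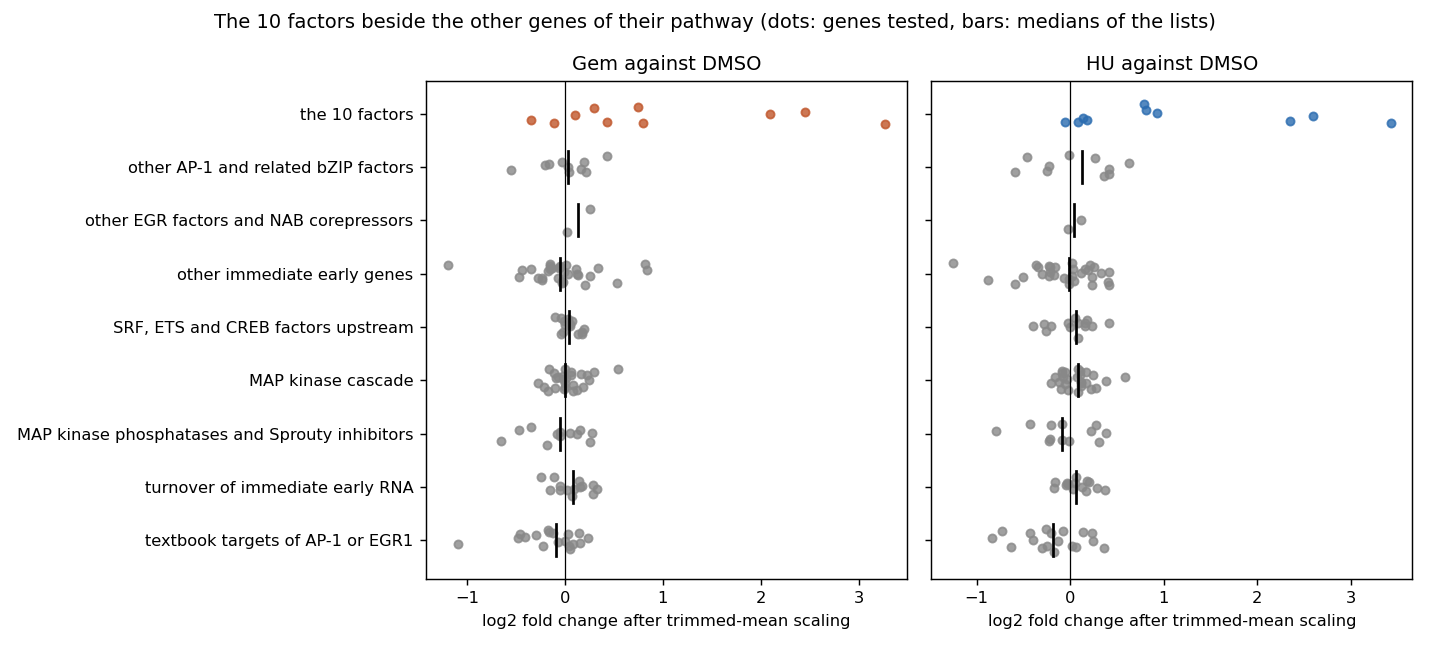
Log2 fold change after trimmed-mean scaling (horizontal axes) of the 10 genes (coloured dots) and of each tested gene of the 8 pathway lists (grey dots), in Gem (left) and HU (right), with list medians as bars; vertical jitter carries no value. List medians lie between -0.094 and 0.14 in Gem and between -0.19 and 0.13 in HU, and Jun, Fos and Egr1 lie at 2.099 or above.

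Other AP-1 and related bZIP factors, with which Jun and Fos proteins pair or compete, were called higher in 0 of 10 in both drugs, and lower in 3 in Gem and 4 in HU, or 30% and 40% beside 23.2% and 35.5% of all genes. After scaling 0 were lower in Gem and 2 in HU. Batf, which pairs with Jun proteins in lymphoid and myeloid cells, fell from 38.1 ± 3.56 FPKM to 20.8 ± 1.53 with Gem and 19.3 ± 1.79 with HU, with -0.84 ± 0.11 and -0.95 ± 0.11 on the log2 scale (limma adjusted p = 0.00654 and 0.00142). After scaling its fall passed in HU alone (-0.59, adjusted p = 0.0148, against -0.55, 0.0547 in Gem). Atf2, a CRE-binding partner of Jun, fell by 0.49 in Gem and 0.57 in HU (adjusted p = 0.0115 and 0.00332) and missed the threshold after scaling. Atf7, its relative, fell by 0.32 in Gem and 0.82 in HU (0.0460 and 0.00144), and after scaling by 0.47 in HU (0.0188). The list's median log2 fold change was -0.22 in Gem and -0.23 in HU. Of the EGR family and its NAB corepressors 2 were tested and 0 called in either direction, with 0 at an unadjusted p below 0.05. Egr3 and Egr4 were under the filter, at 0.60 FPKM or less in every library, and so was Fosl1, at 0.82 or less.

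Other immediate early genes were called higher in 0 of 31 in both drugs and lower in 11 in Gem and 13 in HU (35.5% and 41.9%, beside 23.2% and 35.5% of all genes), with medians of -0.33 and -0.34. After scaling 1 was called higher and 0 lower in Gem, and 1 higher and 3 lower in HU. Btg1, an antiproliferative early gene, fell from 32.3 ± 3.54 FPKM to 18.5 ± 0.467 in Gem and 16.3 ± 0.742 in HU (limma adjusted p = 0.00699 and 0.00136). Ier3, an early response gene that acts on cell survival, fell from 32.4 ± 1.01 to 21.5 ± 1.74 and 19.2 ± 0.658 (0.00770 and 0.00144). Both passed after scaling in HU (-0.59 and -0.37) and missed the threshold in Gem (-0.47 and -0.28). Nr4a1, an early nuclear receptor gene, stood at 2.56 to 3.54 FPKM in DMSO and 2.54 to 2.95 in the drug libraries, which overlapped, and is named with Myc after the values were seen. Myc, a proliferation factor, fell as deposited from 95.9 ± 8.91 FPKM to 69.7 ± 8.34 and 63.9 ± 5.49, but stood at -0.16 and -0.21 after scaling (limma adjusted p = 0.509 and 0.263), where it did not pass.

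Upstream factors, which bind the promoters of immediate early genes, were called higher in 0 of 14 and lower in 2 in Gem and 6 in HU (14.3% and 42.9%, beside 23.2% and 35.5% of all genes), with medians of -0.23 and -0.28, and 0 were called in either direction after scaling. Mef2c and Mef2a, which bind AT-rich elements, fell from 41.5 ± 0.741 and 39.6 ± 0.567 FPKM to 32.6 ± 1.74 and 29.7 ± 0.113 in Gem and 34.2 ± 3.98 and 30.9 ± 6.58 in HU, but Mef2c moved to 0.081 in HU after scaling. Crebbp, a coactivator of CREB, fell by 0.62 in HU (limma adjusted p = 0.00277) and Crem, a CREB relative, by 0.58 (0.0113). Their values in Gem were -0.29 and -0.097 and did not pass. Srf, which binds the CArG box, stood at 1.95 to 2.68 FPKM in DMSO and 0.73 to 1.95 in the drug libraries.

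The MAP kinase cascade was called higher in 0 of 26 and lower in 9 in Gem and 13 in HU (34.6% and 50%, beside 23.2% and 35.5% of all genes), with medians of -0.26 and -0.27, and 0 in either direction after scaling. Map2k2, the ERK kinase MEK2, fell from 94.6 ± 8.08 FPKM to 67.9 ± 2.38 in Gem and 70.3 ± 1.94 in HU (limma adjusted p = 0.0117 and 0.00841). Araf, a RAF kinase, fell from 52.5 ± 1.17 to 39.7 ± 2.64 and 39.0 ± 0.0778 (0.0120 and 0.00488). Map3k1, a kinase upstream of JNK, fell by 0.52 in HU (0.00393), with -0.23 in Gem (0.0862). Mapk8, which encodes the JNK1 kinase that phosphorylates Jun, stood at 4.40 to 4.56 FPKM in DMSO, 4.60 and 4.73 in Gem and 3.75 and 3.83 in HU. After scaling Mapk8 stood at 0.29 in Gem and 0.099 in HU on the log2 scale, and was not called in either.

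MAP kinase phosphatases and Sprouty proteins, which switch the cascade off and are themselves induced by it, were called higher in 0 of 12 and lower in 2 in Gem and 4 in HU (16.7% and 33.3%, beside 23.2% and 35.5% of all genes), with medians of -0.25 and -0.39, and 0 after scaling. Dusp5, an ERK phosphatase, fell from 12.2 ± 2.21 FPKM to 5.88 ± 0.0283 in Gem and 7.90 ± 0.148 in HU (limma adjusted p = 0.00925 and 0.0251). Dusp1, an immediate early phosphatase of p38 and JNK, fell by 0.74 in Gem (0.0292), with -0.54 in HU (0.0542). Dusp2 fell by 0.54 and Spry2 by 1.10 in HU (0.00712 and 0.00784), with -0.13 and -0.61 in Gem, which did not pass. Genes for the decay of immediate early RNA were called higher in 0 of 14 and lower in 1 in each drug (7.14%, beside 23.2% and 35.5% of all genes), and in 0 after scaling. The gene called was Cnot8, a deadenylase subunit, at 64.1 ± 1.55 FPKM in DMSO and 46.6 ± 0.884 and 48.2 ± 3.85 in Gem and HU, which stood at -0.15 and -0.044 on the log2 scale after scaling (limma adjusted p = 0.315 and 0.748). Zfp36, whose protein binds AU-rich elements of such RNA, overlapped, at 10.09 to 13.11 FPKM in DMSO and 7.52 to 10.64 in the drug libraries.

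Textbook targets of AP-1 or EGR1 were called higher in 0 of 18 in both drugs (0 at an unadjusted p below 0.05) and lower in 5 in Gem and 7 in HU (27.8% and 38.9%, beside 23.2% and 35.5% of all genes), with medians of -0.34 and -0.49, and 0 in either direction after scaling, where the medians were -0.094 and -0.19. Cd44, a hyaluronan receptor, fell from 139 ± 5.36 FPKM to 103 ± 2.02 in Gem and 90.7 ± 10.4 in HU (limma adjusted p = 0.0149 and 0.00217). Cdkn1a, the cell cycle inhibitor p21, fell from 99.8 ± 8.09 to 65.4 ± 5.90 and 58.7 ± 12.2 (0.0198 and 0.00497). After scaling both lay below 0 and missed the threshold. Tnf, an AP-1 target in myeloid cells, was named after its values were seen. As deposited it stood at 42.12 to 62.4 FPKM in DMSO and 33.84 to 37.02 in the drug libraries. Every drug library thus lay below every DMSO library, as for 42.6% of all genes. After scaling Tnf stood at -0.22 in Gem and -0.13 in HU and did not pass (limma adjusted p = 0.537 and 0.685).

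The genes whose pattern was most like that of Jun over the 7 libraries, by Pearson's r of scaled log2 values among 7967 candidates with the 10 genes themselves left out, were Nfkb2 (0.996), Lars2 (0.994), Ip6k1 (0.992), Ubb (0.983) and Atg13 (0.983). For Fos they were the same 5, with r from 0.985 (Ubb) to 0.991 (Nfkb2). The libraries form a DMSO and a drug cluster, share their DMSO controls and scaling, and r mostly states that split. Nfkb2, an NF-kB subunit, was at 19.14, 20.95 and 32.04 FPKM in DMSO, 114.59 and 119.16 in Gem and 120.19 and 122.80 in HU. DMSO 3 was the highest control for Nfkb2, as it was for Jun. Ip6k1, an inositol phosphate kinase, had a far smaller gap, at 29.40 to 32.58 FPKM in DMSO and 34.97 to 37.63 in the drug libraries.

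In GENCODE M21 (GRCm38, the assembly of mm10) Jun, Jund and Ier2 are genes of 1 exon, on chromosome 4 (95049034 to 95052222, minus strand), chromosome 8 (70698949 to 70700616, plus) and chromosome 8 (84661331 to 84662852, minus). Junb lies on chromosome 8 (84974484 to 84978718, minus), Fos on chromosome 12 (85473890 to 85477273, plus), Fosb on chromosome 7 (19302696 to 19310051, minus) and Fosl2 on chromosome 5 (32135801 to 32157842, plus). Egr1 lies on chromosome 18 (34859823 to 34864984, plus), Egr2 on chromosome 10 (67535475 to 67542188, plus) and Atf3 on chromosome 1 (191170296 to 191218039, minus). The labels do not say that strand was kept, so reads of overlapping genes on the opposite strand cannot be told apart. Jun overlaps the antisense gene Junos, listed at 1.37 to 2.11 FPKM in DMSO and 0 to 1.52 in the drug libraries. Junb overlaps Prdx2, a peroxiredoxin gene, listed at 129.59 to 131 FPKM in DMSO and 73.25 to 95.45 in the drug libraries. Jund overlaps the antisense gene Gm11175, listed at 1.3 FPKM in DMSO 3 and at 0 in the other 6 libraries. Atf3 overlaps the small RNA gene Gm24748. The part of these overlaps in the values of Jun, Junb, Jund and Atf3 was not tested.

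Markers of blood cell types are given beside these genes, as sums of FPKM as deposited. The summed FPKM of 10 stem cell markers was 142.7 to 153.69 in DMSO and 90.41 to 106.88 in the drug libraries. Of the 8 tested 3 were called lower in Gem and 4 in HU (37.5% and 50%, beside 23.2% and 35.5% of all genes). After scaling 0 were called in Gem and 1, Ly6a, was called lower in HU. Fgd5, which was under the filter, went the other way, from a mean of 0.0233 FPKM to 0.19 in Gem and 0.465 in HU. The sum of 10 monocyte and macrophage markers, cells in which AP-1 genes are strongly expressed, was 23597.5 to 32771 and 33804.9 to 37960.2, but without Lyz2 it was 1879.87 to 2009.86 and 1336.03 to 1559.61. Of these 10 markers 0 were called higher as deposited in either drug (0 at an unadjusted p below 0.05 in limma), 3 were called lower in Gem and 5 in HU (30% and 50%, beside 23.2% and 35.5% of all genes), and 0 were at 0 in every library. After scaling 0 were called lower in either drug, 0 higher in Gem and 1 higher in HU, Lyz2 (0.79, limma adjusted p = 0.0481). The sum of 10 granulocyte markers overlapped, at 11365.7 to 18269.2 and 11423.4 to 15147. The sum of 8 mast cell and basophil markers also overlapped, at 301.51 to 1386.55 and 220.84 to 423.82, and so did that of 8 megakaryocyte and platelet markers, at 1774.15 to 2868.88 and 1379.47 to 1827.03. The sum of 8 erythroid markers was 33.42 to 57.21 in DMSO and 18.06 to 27.38 in the drug libraries, with no overlap. As deposited, 42.6% of all genes had every drug library below every DMSO library. Of the 5 erythroid markers tested 1, Hbb-bt, was called lower in each drug (20%, beside 23.2% and 35.5% of all genes). After scaling it was called in HU alone. Alas2 went the other way, at 0.69 in Gem and 0.73 in HU on the log2 scale. The part of these shifts, and of the higher receptor gene level, in the values of the 10 genes was not tested.

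The fold changes of Jun, Fos and Egr1 kept their direction in all 17 alternative settings. Jun ranged from 2.91 to 3.32 in Gem and from 2.99 to 3.55 in HU, Fos from 2.09 to 2.50 and from 2.19 to 2.75, and Egr1 from 1.64 to 2.22 and from 1.94 to 2.44. Egr1 missed the threshold in Gem without Gem 2. Junb stayed below 0 in Gem in all 17 settings, from -0.67 to -0.29, and ranged from -0.35 to 0.18 in HU. Atf3 lay on both sides of 0 in both drugs, from -0.14 to 0.36 in Gem and from -0.26 to 0.28 in HU.

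**Figure D5:**
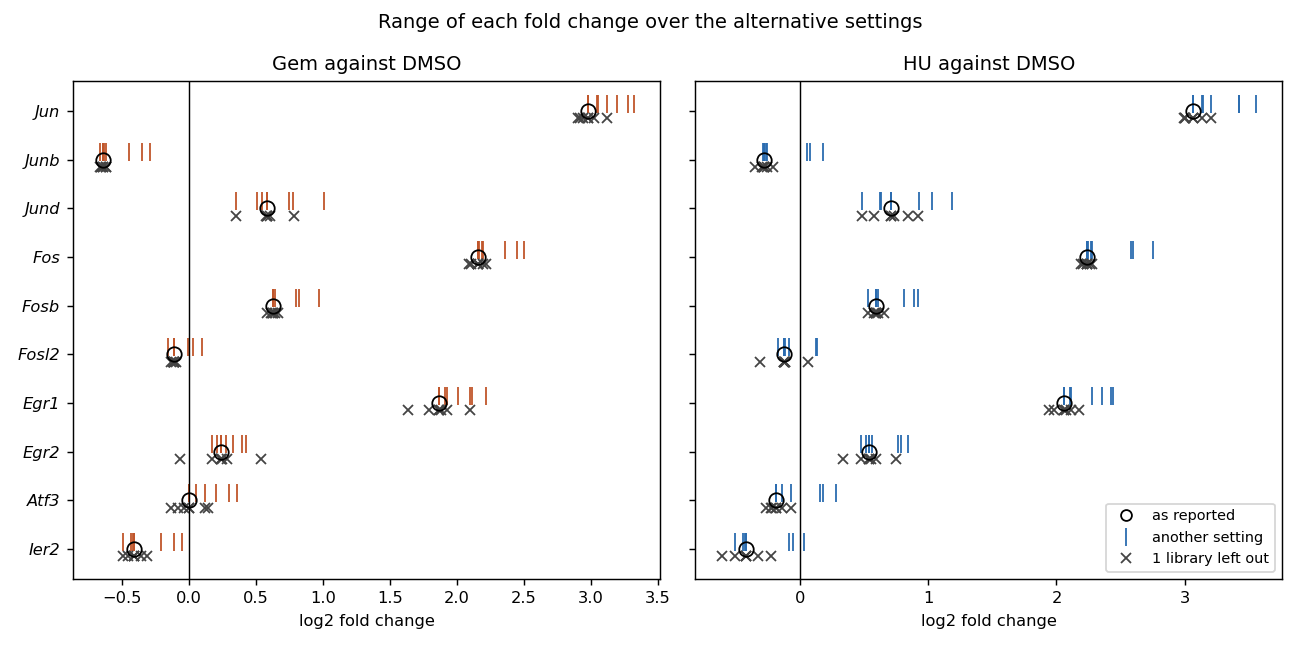
Log2 fold change against DMSO (horizontal axes) of each gene in Gem (left) and HU (right), as reported (circles), under each other setting (ticks) and with 1 library left out (crosses). Jun spans 2.91 to 3.32 in Gem and stays apart from 0, while Atf3 spans -0.14 to 0.36.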

How the data were processed

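RNA of 7 libraries was measured, 3 of DMSO, 2 of Gem and 2 of HU. Per the labels' protocols, RNA was extracted with a miRNeasy kit, amplified by Geo-seq and made into libraries with TruePrep. The authors deposited FPKM to 2 decimals for 52224 genes. Per the submitters' processing notes, Cufflinks 2.1.1, Bowtie 0.12.9, DESeq2, HTSeq and build mm10 were used, in roles not listed; the tool behind the FPKM is not given in the sources used here. When low values were searched for the worth of 1 read, 25.4% to 33.7% of them in a library came within 0.1 of whole multiples. Reads could therefore not be recovered, and depth is unknown.

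The deposited FPKM were tested as log2(FPKM + 1) with limma 3.58.1 (R 4.3.3; figures in Python 3.11.15). The 13865 genes that reached 1 FPKM in 2 or more libraries entered 1 fit of the 3 groups, with a trend of variance on level, no replicate block and 4 degrees of freedom left. Two-sided p-values received Benjamini-Hochberg adjustment over the whole set, and calls were made below 0.05. Fold changes on this scale understate those of low genes. Scaled values used a trimmed mean (30% of ratios and 5% of levels removed at each end). The scripts were tested on simulated data.

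The members and lists were chosen with earlier results of these data known. Besides the members, up to 2 genes called in each direction per list and drug with the smallest p and a mean FPKM of at least 5 were named, and the 5 genes most like Jun and the 5 most like Fos. Genes named outside this rule (Irf1, Nr4a1, Myc, Srf, Mapk8, Zfp36, Tnf, Egr3, Egr4, Fosl1, those in the paragraph on the libraries and those that overlap members) were chosen after their values were seen. Alternatives were another pseudocount (0.1), other filters, scalings and models, a replicate block and leaving out each library. One listed gene, Rps6ka4, was not analysed here.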

Additional observations from a re-analysis of the deposited data

How the results depend on the processing

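Counts of genes called were, as reported, 3421 for Gem against DMSO, 5541 for HU against DMSO and 14 for Gem against HU, and 33 and 48 for the pathway genes in Gem and HU. The scaling moved the 4 counts against DMSO (genes in Gem and in HU, then pathway genes in Gem and in HU), which were 440, 1478, 4 and 6 with the same sum per library, 132, 1389, 1 and 6 with trimmed-mean scaling, and 67, 560, 1 and 4 with quantile normalization. In Gem against DMSO the counts of genes and pathway genes were 1509 and 11 with no filter and 2132 and 16 with no mean-variance trend. Gem against HU gave 1 gene with a pseudocount of 0.1, 2 with no filter, 2 with a mean FPKM of at least 5 and 64 with no trend. Leaving out 1 library gave 13 (without Gem 2) to 3381 genes in Gem, 3095 (without HU 1) to 5204 in HU and 1 to 11 in Gem against HU, with 0 to 32 and 26 to 45 pathway genes. The labels do not say whether the replicate numbers pair the libraries. Same-numbered libraries had deviations from their group means correlated at -0.073 to 0.055 over the genes tested, which cannot settle whether they shared an animal or a batch. With the replicate block the counts were 2877, 4835 and 2, with 24 and 41 pathway genes.

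The members were chosen with these contrasts known, so their calls describe the settings and support nothing. Jun and Fos were called in 17 of 17 alternatives in both drugs and Egr1 in 16 of 17 in Gem (not without Gem 2) and 17 of 17 in HU. Fosb was called in 6 of 16 in Gem and 10 of 16 in HU, and Junb in 14 of 17 and 8 of 17. Ier2 was called lower in 7 of 17 in Gem and 5 of 17 in HU, and Jund higher in 1 of 16 in HU. Junb in HU reversed to 0.057 with the same sum per library, 0.082 with trimmed-mean scaling and 0.18 with quantile normalization. The differences of Gem minus HU that changed sign were never called: with the same sum and the trimmed mean, Fosb at -0.070 and -0.012, Fosl2 at -0.097 and -0.037 and Ier2 at -0.13 and -0.055, and with quantile normalization Ier2 at -0.090. With 1 library left out Gem minus HU ranged from -0.030 to 0.095 for Fosb, -0.18 to 0.19 for Fosl2, -0.18 to 0.20 for Ier2, -0.42 to 0.038 for Egr1 and -0.26 to 0.0024 for Jund. The causes were not tested. With 1 library left in a group, its spread is assumed to match that of the others. Depth is unknown, so the precision of the members near 1 to 3 FPKM cannot be given.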
